A study of Mus musculus with 12 samples.

Results

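Whole mouse embryos at the morula stage were compared with embryos at the pronuclear stage, which gives the net change in each transcript over both cleavage steps of early development. The stage named in each sample title put 2 arrays in the morula group and 2 in the pronuclear group, 4 of the 12 arrays of the series. The 2 arrays of 2-cell embryos served to separate transcripts that kept their pronuclear level throughout from those that left it and came back, and 6 arrays of E10.5 and E16.5 embryos contributed only to the estimate of the spread. Females were superovulated and mated naturally, with the day of the plug taken as E0.5, and neither a strain nor an induced mutation is given in the sources used here. Pronuclear embryos (E0.5) had passed through drops of KSOM, a culture medium made for embryos, before they were kept in an incubator. 2-cell embryos (E1.5) and morulae (E2.5) were collected 24 and 48 h after the plug day. Early embryos were pooled for each array, with the number in a pool unstated, whereas the E10.5 and E16.5 arrays are titled as individuals. The tests thus use 1 spread shared by early pools and individual later embryos. It is not the spread between early pools alone, which may be technical. Total RNA of 2 ng was labelled and hybridised to Clariom S Mouse arrays, which read most genes with 1 probe set, and the values are log2 signals on which a difference of 1 is a doubling of brightness.

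The egg stores messenger RNA that runs the embryo before its own genome is active. Much of that maternal RNA is then shortened at its poly(A) tail and destroyed, while transcription from the zygotic genome starts weakly in the pronuclear embryo and strongly at the 2-cell stage in mouse. By the morula stage the cells compact into a ball, become polarised, and start to differ as future trophectoderm, the outer layer that forms placenta, or as inner cell mass.

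On 21156 genes, the signals of the 2 pronuclear arrays correlated at 0.987 across genes and those of the 2 morula arrays at 0.979, while arrays of different stages correlated at 0.763 to 0.773. The medians of the 4 arrays lay between 6.19 and 6.32. Genes were tested with limma, the p-values were adjusted by Benjamini-Hochberg for all genes at once, and "rose" and "fell" refer to a morula minus pronuclear difference with adjusted p below 0.05. The signal of 1404 genes for olfactory and vomeronasal receptors, sensory proteins used here as a gauge of background brightness, had a 95th percentile of 5.85 on the pronuclear and 6.10 on the morula stage means. A gene that changed and had 1 stage below that percentile has only a lower limit of change, which is written below as "at least". The arrays measure a share of RNA and not an amount per embryo, and in such pools fewer cells of a type and less RNA per cell cannot be told apart.

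Between the pronuclear and the morula stage, 5030 genes rose (23.8% of those tested) and 5061 fell (23.9%). The calls together made up 47.7% of all genes, and on 15007 genes (70.9%) the arrays of the stages did not overlap. Large falls were more numerous than large rises. More than 5 log2 units separated the stages for 602 genes that fell and for 238 that rose, and more than 2 log2 units for 2866 and 2033. Of the genes that fell, 1645 went from above the receptor percentile to below it, and 1024 of those that rose did the reverse. Another 1218 called genes lay below it at both stages, and no level is given for them. The median change over all genes was 0.15, and it became -0.11 after centring on the receptor genes and 0.56 after centring on the upper quartile. Of all calls 49.8% were rises, against 39.3% and 64.7% under those centrings.

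**Figure D1:**
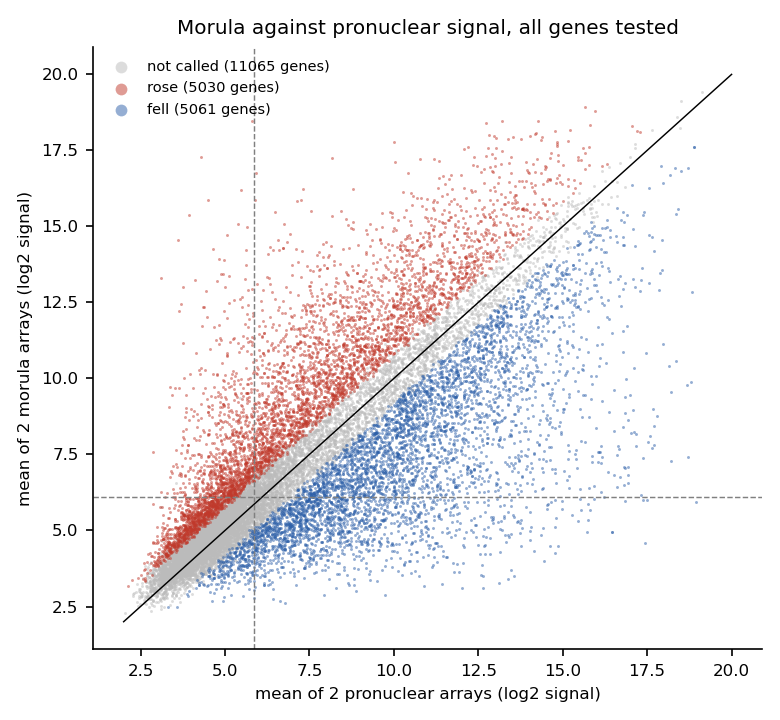
Mean log2 signal of the 2 morula arrays (vertical axis) against the mean of the 2 pronuclear arrays (horizontal axis), 1 point per gene, with 5030 rises in red, 5061 falls in blue and 11065 genes not called in grey. The diagonal marks equal signal, and the dashed lines mark the receptor percentiles of 5.85 and 6.10. More than 5 log2 units separate the stages for 602 blue and 238 red points.

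The transcripts that gained most came from genes with little to no signal in the pronuclear embryo. Calcoco2 (chromosome 11, 96098916 to 96111964 on mm10), whose human counterpart is a receptor that delivers cargo to autophagosomes, read 4.09 and 4.51 on the pronuclear arrays and 17.23 and 17.35 on the morula arrays. All morula values lay far above all pronuclear ones, and the rise was at least 11.32 log2 units (limma, adjusted p = 9.53e-13). Timd2 (chromosome 11, 46668960 to 46707104), a cell-surface protein that takes up ferritin in mouse, read 5.66 and 5.92 against 18.45 and 18.46, a rise of at least 12.48 (adjusted p = 9.53e-13). Both genes were already high at the 2-cell stage, with 13.03 and 13.26 for Calcoco2 and 15.66 and 15.78 for Timd2. Vnn1 (chromosome 10, 23894688 to 23905343), a pantetheinase that releases cysteamine, followed another course. It read 3.08 and 3.14 in pronuclear embryos, 3.59 and 4.85 at the 2-cell stage, and 13.07 and 13.56 in morulae, a rise of at least 7.34 (adjusted p = 1.44e-11) that came almost wholly after the 2-cell stage. Alppl2, an alkaline phosphatase of early embryos, rose by 10.83 ± 0.52 (SE, n = 2 arrays each; adjusted p = 1.56e-10) to 16.60 and 16.89, from pronuclear arrays that stood apart at 4.98 and 6.83.

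The other large rises belonged to Guca1a, known as a calcium sensor of photoreceptor guanylate cyclase (at least 9.91), to Tdpoz2, a POZ-domain gene of a family active in 2-cell embryos (at least 8.59), and to the paired genes Plac9b and Plac9a. Plac9b rose by at least 10.21 and Plac9a by 9.98 ± 0.35 (adjusted p = 9.67e-12), but these are near-identical copies on chromosome 14, as Tdpoz2 is one of several alike genes, so the probe sets of such genes may not tell the copies apart.

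Genes known from the oocyte were among the deepest falls. Tcl1 (chromosome 12, 105216750 to 105222793), a coactivator of the kinase AKT, read 18.93 and 18.97 in pronuclear embryos and 5.77 and 6.10 in morulae. The groups did not overlap, and the fall was at least 12.77 log2 units (limma, adjusted p = 9.53e-13). At the 2-cell stage Tcl1 still read 18.80 and 18.84, so its loss fell between that stage and the morula. Rgs2 (chromosome 1, 143999338 to 144004161), which damps signals from G-protein-coupled receptors, went from 17.60 and 17.27 through 11.61 and 11.54 at the 2-cell stage to 4.78 and 4.39, a fall of at least 11.26 (adjusted p = 9.53e-13) spread over both steps. Zar1 (chromosome 5, 72577114 to 72581084), a protein that binds stored maternal messenger RNA, likewise stepped down from 17.35 and 17.31 through 12.06 and 11.89 to 5.78 and 6.58 (-11.15 ± 0.33, adjusted p = 1.99e-12).

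Of the other deep falls, Bcl2l10, a BCL2 relative abundant in oocytes, fell by at least 10.29, and the homeobox gene Meis2 by at least 11.16. Tcl1b1 and Tcl1b2, neighbours of Tcl1 on chromosome 12, fell by at least 10.28 and 11.20. Tcl1b1 had first risen at the 2-cell stage, by 1.30 (adjusted p = 0.0029), before it was lost. Oosp1, an oocyte secreted protein, fell by 11.27 ± 0.33 (adjusted p = 1.89e-12) and was still 18.45 and 18.41 at the 2-cell stage.

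**Figure D2:**
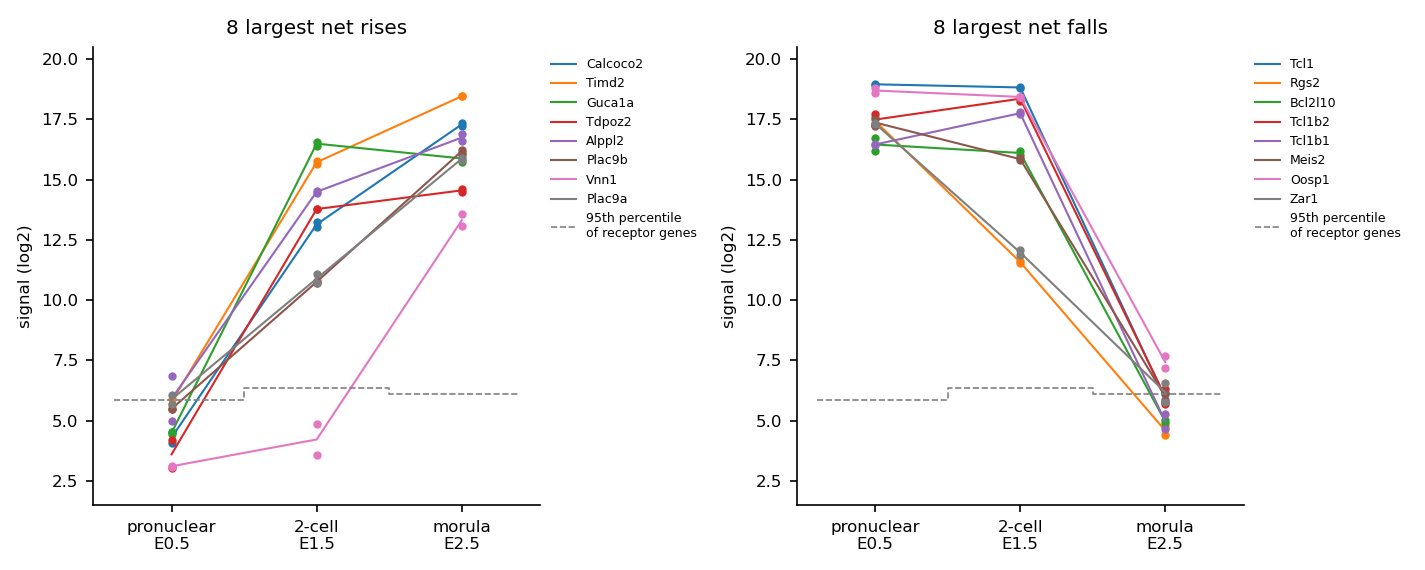
Log2 signal on each array of the pronuclear, 2-cell and morula stages for the 8 largest rises and the 8 largest falls, with points for arrays, lines through stage means and the receptor percentile dashed. Calcoco2 and Timd2 are high from the 2-cell stage on, Vnn1 only in morulae, and Tcl1 and Bcl2l10 lie within 1 log2 unit of their pronuclear mean in 2-cell embryos while Rgs2 and Zar1 step down at each stage.

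The timing of these examples varied as widely among all genes with a net change above 2 log2 units. Among the 2033 such rises, the 2-cell mean was still within 1 log2 unit of the pronuclear mean for 794 genes, had come within 1 of the morula mean for 442, and lay between for 583. For 129 rises the 2-cell mean exceeded the morula mean, and for 85 it lay below the pronuclear mean. Among the 2866 falls the same classes held 851, 751, 1128, 35 and 101 genes. At the median, 40.9% of the rise and 43.8% of the fall had been covered at the 2-cell stage.

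Oocyte-specific genes fell almost throughout. A list of 21 measured genes held the zona pellucida (the coat of the egg) and oocyte growth factors. It also held Tcl1 and Oosp1 of the deep falls above, and Oosp2, Cd9 and Dppa3. Among these 21 genes 19 fell, against 23.9% of all genes, 1 rose and 1 did not pass. Their median change was -8.46, or -8.29 with lower limits in place of fitted values, beside 0.15 over all genes. The zona proteins themselves went from Zp1, with -7.40, to Zp2, with -6.25, and the secreted growth factors Bmp15 and Gdf9 fell by 9.94 and 8.87 on the log2 scale. Oosp2, an oocyte secreted protein, fell by at least 9.54. The exceptions were Cd9, the egg membrane protein needed for fusion with sperm, and Dppa3. Cd9 read 11.35 and 11.48 in pronuclear embryos and 15.24 and 15.07 in morulae, a rise of 3.74 ± 0.30 (limma, adjusted p = 3.85e-08). Dppa3, a maternal protein that guards DNA methylation and stays on in pluripotent cells, read 17.15 and 16.82 against 17.31 and 17.24, a difference of 0.29 with a 95% interval from -0.35 to 0.94.

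The subcortical maternal complex, a protein lattice under the egg membrane that embryos need to pass the 2-cell stage, showed the same split. Of the 12 genes listed for the complex or as its NLR-family relatives, 11 fell (91.7%) and 1 rose (8.3%). All genes gave 23.9% and 23.8%. The median of the list was -8.43 (-8.35 with lower limits). Tle6 stepped from 17.04 and 16.84 through 11.31 and 11.86 to 6.32 and 6.83, a fall of 10.36 ± 0.32 on the log2 scale (adjusted p = 2.81e-12), and the NLR-family genes Nlrp4f and Nlrp9b fell by at least 8.81 and 8.33. Khdc3, another subunit, dipped from 11.89 and 11.70 to 10.13 and 10.53 at the 2-cell stage and then reached 14.92 and 15.25 in morulae, a net rise of 3.29 ± 0.31 (adjusted p = 2.58e-07).

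Genes that store, protect or remove maternal RNA fell in 21 of 28 cases (75.0%, against 23.9% of all genes). There were 3 rises (10.7%, against 23.8%), and the median was -2.84. Btg4, the adaptor that brings the CCR4-NOT deadenylase to maternal messages, read 18.06 and 18.37 at the pronuclear and 18.29 and 18.40 at the 2-cell stage, and 7.02 and 7.58 in morulae. Its 2-cell arrays lay among the highest of the 6, and its net fall of 10.92 ± 0.32 on the log2 scale (adjusted p = 1.89e-12) took place in the second step. Pabpn1l, a poly(A)-binding protein that acts with Btg4, fell in both steps: it read 13.63 and 13.50, then 8.28 and 7.64, then 3.63 and 3.41, a fall of at least 7.39 (adjusted p = 3.89e-12). Zcchc11, which adds uridines to RNA tails, rose by at least 1.14 (adjusted p = 0.000919).

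Of 31 genes for meiotic arrest and egg activation, 22 fell (71.0%, against 23.9% of all genes) and 5 rose (16.1%, against 23.8%). Their median was -2.53 (-2.50 with lower limits). Mos, the kinase that holds the egg in metaphase, read 12.63 and 12.62 against 3.94 and 3.09, a fall of at least 6.46 (adjusted p = 8.86e-12), most of it complete at the 2-cell stage, where it read 6.32 and 6.58. Wee2, the oocyte kinase that inhibits CDK1, fell by 8.25 ± 0.38 on the log2 scale (adjusted p = 1.07e-10). Cdk1 itself rose by 3.01 ± 0.35 (adjusted p = 2.47e-06), from 11.75 and 11.96 to 14.94 and 14.78.

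Cells that surround the egg at mating could add RNA to pronuclear pools, so markers of such cells were read on the same arrays. Of 24 markers of cumulus and granulosa cells, 14 fell (58.3%, against 23.9% of all genes) and 1 rose (4.2%, against 23.8%). The receptor percentile was exceeded by 15 of them in pronuclear embryos and by 8 in morulae. The mean signal over the list was 7.49 and 7.58 on the pronuclear arrays, 6.96 and 6.99 on the 2-cell arrays and 5.92 on each morula array, and its median change was -1.43 (-0.60 with lower limits). Tnfaip6, a matrix protein of the expanded cumulus, fell by at least 5.11 (adjusted p = 2.43e-10), while Gja1, a gap junction protein also present in compacting embryos, rose by 3.995 ± 0.282 (adjusted p = 1.13e-08). Cyp11a1, the first enzyme of steroid synthesis, read 13.55 and 13.40 in pronuclear embryos but 15.27 and 15.46 at the 2-cell stage, before 7.56 and 8.66 in morulae. The granulosa markers Foxl2, Amh and Cyp19a1 read 3.09 to 4.47 on the arrays of both stages, below the receptor percentiles, so their differences say nothing of a change. The part of cumulus cells in the falls above was not tested. Of 12 sperm genes 2 fell (16.7%, against 23.9% of all genes), Prm2 (at least 3.25) and Spa17 (-2.79). Only these exceeded the percentile in pronuclear embryos.

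**Figure D3:**
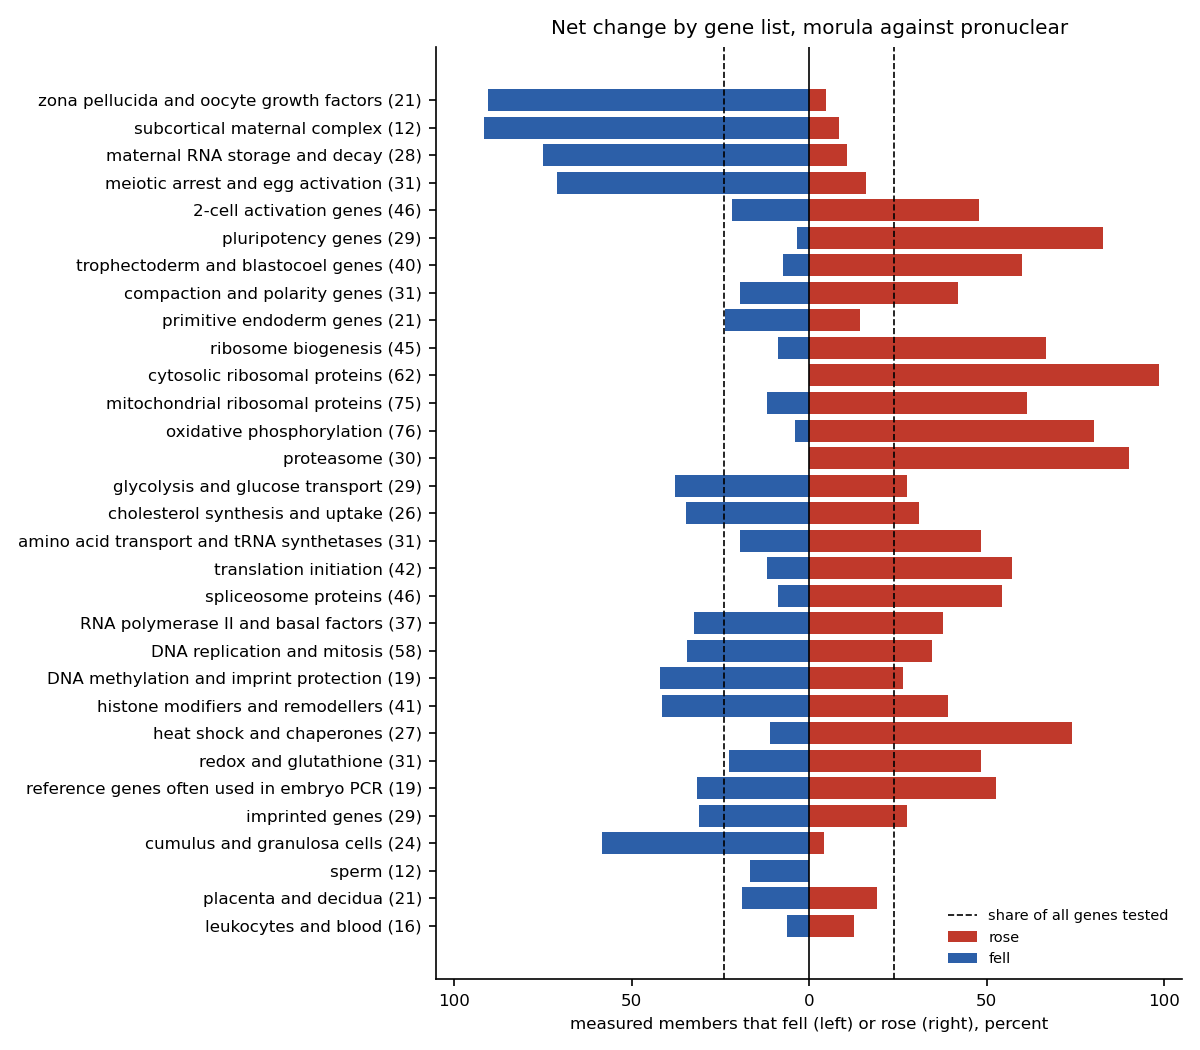
Percent of the measured members of each gene list that rose (red bars, to the right) or fell (blue bars, to the left) from pronuclear embryos to morulae, with the number of measured members in brackets and dashed lines at the shares of all genes tested, 23.8% and 23.9%. The bars of the first 2 oocyte lists reach 90.5% and 91.7% on the left, and those of the cytosolic ribosomal proteins and the proteasome reach 98.4% and 90.0% on the right with no bar on the left.

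Many genes of the oocyte have a relative that most cells use, and 28 such pairs or sister genes were set side by side. The first-named member fell in 24 pairs. Its relative also fell in 7 of these, was not called in 10 and rose in 7, shares near those of all genes tested (23.9%, 52.3% and 23.8%). The differences between members were not tested as such, and different probe sets permit no comparison of their levels.

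Several RNA-binding proteins of the oocyte fell while their relatives rose or were not called. Pabpc1l, the cytoplasmic poly(A)-binding protein of oocytes, read 13.27 and 13.47 in pronuclear embryos and 4.70 and 5.00 in morulae, a fall of at least 7.20 (limma, adjusted p = 2.81e-12). Pabpc1, the form of other cells, went the other way, from 14.38 and 14.04 to 18.09 and 18.04, a rise of 3.85 ± 0.27 (adjusted p = 8.84e-09). Eif4e1b, an oocyte cap-binding protein, read 15.47 and 15.56 against 6.68 and 6.04 (-9.16 ± 0.35, adjusted p = 1.6e-11). The general cap-binding factor Eif4e read 14.38 and 14.36, then 14.42 and 14.65, then 14.04 and 13.95, and its net difference of -0.38 had a 95% interval from -0.97 to 0.21. Beside Btg4, Btg1 gave -0.01 (95% interval -0.74 to 0.72), and beside the oocyte decay factor Patl2, which fell by at least 3.54, Patl1 gave 0.15 (-0.52 to 0.82).

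Cell cycle and chromatin pairs behaved alike in part. Wee1, the relative of Wee2, differed by 0.27 (95% interval -0.32 to 0.86), and Aurkb, the relative of the germ-cell Aurora kinase Aurkc (-5.91 ± 0.32, adjusted p = 5.9e-10), by -0.29 (-0.93 to 0.35). Tet3, the dioxygenase that oxidises methylated DNA in the zygote, read 13.57 and 13.89 against 8.98 and 9.13 (-4.67 ± 0.29, adjusted p = 2.6e-09), while Tet1 rose from 5.47 and 6.51 to 10.42 and 10.21 (4.32 ± 0.33, adjusted p = 2.33e-08). The oocyte linker histone H1foo fell by at least 8.26, and the linker histone H1f0 fell as well, by 2.94 on the log2 scale. Npm2, the nucleoplasmin that decondenses sperm chromatin, fell by 7.48 ± 0.27 on the log2 scale (adjusted p = 9.94e-12), and Npm1, a nucleolar chaperone, rose by 0.93 ± 0.27 (adjusted p = 0.00955), a small difference that did not pass without pronuclear replicate 1 (0.83, adjusted p = 0.0651) and was -0.13 after cyclic loess. Taf4b and Taf4a, subunits of the initiation factor TFIID, went the other way: Taf4b rose by 1.07 (adjusted p = 0.00547, or 0.0557 after centring on the receptor genes) and Taf4a fell by 2.13 on the log2 scale (adjusted p = 0.000167). The meiotic cohesin genes Rec8 and Stag3 rose, Rec8 within the receptor range, as did their mitotic relatives Rad21 and Stag2, but Stag3 did not pass without pronuclear replicate 2 (0.88, adjusted p = 0.15) or morula replicate 2 (0.93, adjusted p = 0.121).

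**Figure D4:**
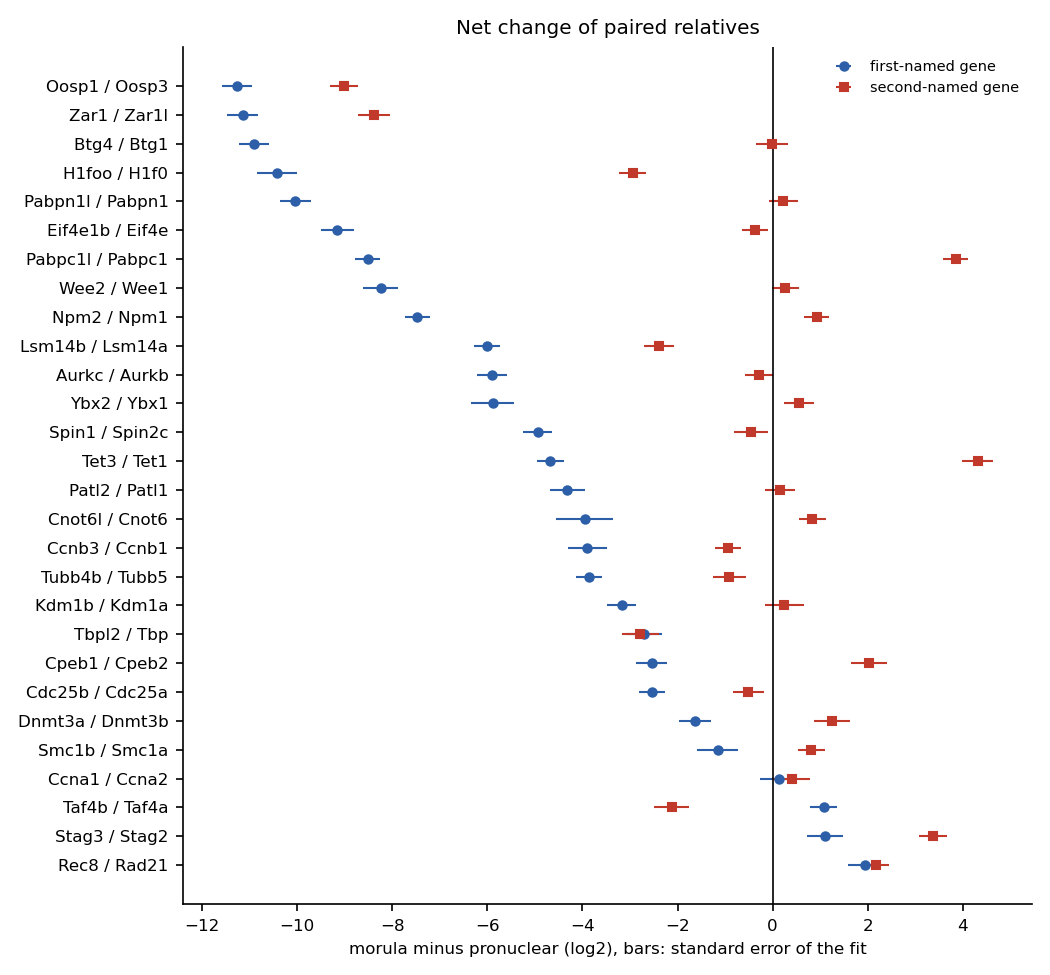
Morula minus pronuclear difference (log2) with its standard error from the fit (bars) for both members of 28 pairs of related genes, with the first-named gene as a blue circle and the second-named as a red square, drawn as fitted also where a stage in the receptor range leaves only a lower limit, as for H1foo. The first-named gene lies below 0 and passes the test in 24 pairs, and its relative rises in 7 of these, as Pabpc1 does, and is not called in 10, as Eif4e is not.

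Genes known for activity at the 2-cell stage had mostly lost signal again by the morula. The mean signal over 46 measured genes of that group was 7.42 and 7.46 on the pronuclear arrays, 12.16 and 12.13 on the 2-cell arrays and 8.30 and 8.36 on the morula arrays. Of these genes 38 rose from the pronuclear to the 2-cell stage (15.6% of all genes did), and 37 fell from the 2-cell stage to the morula (20% of all genes did). Against the starting level, 22 were higher in morulae than in pronuclear embryos (47.8%, against 23.8% of all genes). Another 10 were lower (21.7%, against 23.9%) and 14 did not pass, with a median of 0.73 (0.55 with lower limits). Among those that stayed high besides Timd2, Guca1a and Tdpoz2, the homeobox gene Obox6 had risen at the 2-cell stage, to 13.43 and 13.23 from 5.24 and 4.98, and read 12.52 and 12.46 in morulae, a net rise of at least 6.52 (limma, adjusted p = 1.62e-11). Its relative Obox2, already at 15.62 and 16.00 in pronuclear embryos, fell by at least 9.53 (adjusted p = 1.03e-11). Only 1 gene of the group was classed as back at its pronuclear level after a 2-cell peak. Zscan4a, a DNA-binding protein of 2-cell embryos, was back within 1 log2 unit, as described with the other transient genes below.

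The regulators of pluripotency, the state in which cells can still form all tissues of the body, rose in 24 of 29 cases and fell in 1. These shares were 82.8% and 3.4%, against 23.8% and 23.9% of all genes. The median was 2.4 (2.09 with lower limits). Nanog (chromosome 6, 122707489 to 122714633) read 5.59 and 5.66 in pronuclear embryos, 5.46 and 5.53 at the 2-cell stage and 13.37 and 14.06 in morulae, a rise of at least 7.75 (adjusted p = 2.74e-10). All of its morula signal thus appeared in the second step. Klf5, a zinc-finger factor, climbed at both, from 6.01 and 5.22 through 10.75 and 10.45 to 14.12 and 14.33, a rise of at least 8.26 (adjusted p = 5.56e-11). Fbxo15, an F-box protein of embryonic stem cells, rose by 9.08 ± 0.34 (adjusted p = 1.66e-11). Pou5f1, which encodes OCT4 and is stored in the egg, read 14.76 and 14.82 against 16.40 and 16.45, a rise of 1.64 ± 0.33 (adjusted p = 0.000586). Sox2 rose by 1.35 ± 0.45 (adjusted p = 0.021), but its 2-cell arrays, at 9.83 and 10.25, exceeded its morula arrays, at 8.05 and 8.07, and without any 1 of the 4 arrays its net rise did not pass (adjusted p from 0.0555 to 0.0956). Klf17, a relative of Klf5 stored in the egg, fell by 6.91 ± 0.32 on the log2 scale (adjusted p = 1.3e-10).

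Genes of the future trophectoderm and its fluid pump had risen in 24 of 40 cases and fallen in 3. These shares were 60.0% and 7.5%, against 23.8% and 23.9% of all genes. The median was 1.26 (1.07 with lower limits). Fabp3, a fatty acid carrier, read 5.92 and 4.84 in pronuclear embryos and 15.11 and 15.04 in morulae, a rise of at least 9.11 (adjusted p = 6.18e-11). Cldn7, a claudin of tight junctions, went from 5.28 and 4.82 to 14.65 and 14.76 (at least 8.74, adjusted p = 1.45e-11), and Fbp2, a fructose bisphosphatase, rose by 8.98 ± 0.42 (adjusted p = 1.28e-10). These genes read no higher than 6.23 at the 2-cell stage, below its receptor percentile of 6.36. The lineage factor Cdx2 read 4.66 and 5.18 against 10.65 and 10.39 (at least 4.55, adjusted p = 1.4e-08), and the keratins Krt8 and Krt18 rose by 4.93 and 5.76. Tead4, the DNA-binding partner of YAP that acts ahead of Cdx2, rose by at least 1.90 (adjusted p = 1.17e-06). Emp2, a membrane protein, fell by 2.11 ± 0.27 on the log2 scale (adjusted p = 7.47e-06), with a dip to 10.60 and 10.51 at the 2-cell stage between 13.62 and 13.92 before and 11.68 and 11.64 after. The sodium pump subunit Atp1b3 gave 0.21 and was not called.

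Genes of compaction, polarity and the Hippo pathway gave 13 rises (41.9%) and 6 falls (19.4%) among 31, with a median of 0.41. Against 23.8% and 23.9% of all genes, their falls were no more frequent than among all genes. Epcam, an adhesion protein, rose by at least 5.24 (adjusted p = 1.06e-09), and Wwtr1, which encodes the Hippo coactivator TAZ, by 4.92 ± 0.29 (adjusted p = 1.47e-09). Myl6, a myosin light chain, rose by 2.93 ± 0.29 (adjusted p = 4.49e-07). Rdx, which links actin to the membrane, read 16.46 and 16.44 against 11.40 and 11.60, a fall of 4.95 ± 0.31 on the log2 scale (adjusted p = 2.59e-09). Cdh1, the E-cadherin gene on which compaction depends, was high throughout, at 15.43 and 15.50 in pronuclear embryos, 12.24 and 12.39 at the 2-cell stage and 14.33 and 14.71 in morulae. Its morula arrays lay below its pronuclear ones (-0.94 ± 0.31, adjusted p = 0.0213) and above its 2-cell ones, but the net fall did not pass without morula replicate 1 (-0.75, adjusted p = 0.132) or without either pronuclear array (adjusted p = 0.0652 and 0.0858). Primitive endoderm genes, which belong to a lineage set aside later, showed 3 rises (14.3%) and 5 falls (23.8%) among 21, no more than all genes did, and a median of -0.22. The lineage factor Gata6 rose by at least 0.91, while Gata4 peaked at 11.85 and 12.58 in 2-cell embryos and fell by 2.77 ± 0.37 on the log2 scale overall (adjusted p = 1.21e-05). Lamb1 and Sparc, matrix proteins, fell by 4.60 and 4.21 on the log2 scale, though the morula arrays of Lamb1 stood apart at 6.23 and 8.75.

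Genes of the machinery that makes, folds and destroys proteins rose in most cases. Of 62 measured cytosolic ribosomal protein genes, 61 rose (98.4%, against 23.8% of all genes) and none fell (against 23.9%). Their median was 3.97 against 0.15 over all genes. Rps13 went from 8.93 and 8.35 through 12.41 and 13.15 to 14.82 and 15.24 (6.39 ± 0.45, limma, adjusted p = 1.04e-08), and Rpl8 and Rplp1 rose by 5.69 and 5.48. Rpl17 was the 1 gene that did not pass, with 0.62 ± 0.27 (adjusted p = 0.0687). Ribosomal protein genes have many processed pseudogenes, whose sequences can share probes with them. Genes for ribosome assembly rose in 30 of 45 cases (66.7%) and fell in 4 (8.9%), with a median of 1.50. Nhp2, a protein of the particles that modify ribosomal RNA, rose by 6.34 ± 0.28 (adjusted p = 6.66e-11), Nop16 by 5.62 and the methyltransferase Fbl by 4.96. Noc4l, another assembly factor, fell by 4.17 on the log2 scale.

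Proteasome subunits rose in 27 of 30 cases (90.0%, against 23.8% of all genes) and never fell (against 23.9%), with a median of 2.25. Psmb4 read 11.80 and 11.46 against 16.49 and 16.62 (4.92 ± 0.31, adjusted p = 3.57e-09), and Psmd13 and Psmb1 rose by 4.77 and 4.19. Heat shock proteins and chaperones rose in 20 of 27 cases (74.1%) and fell in 3 (11.1%), with a median of 1.80 (1.23 with lower limits). Cct4, a subunit of the chaperonin that folds actin and tubulin, was up by 4.83 and the co-chaperone Dnajb1 down (-3.04). Translation initiation factors rose in 24 of 42 cases (57.1%) and fell in 5 (11.9%), with a median of 1.13. The rises were led by the guanine nucleotide exchange subunit Eif2b5 with 6.40. Spliceosome proteins rose in 25 of 46 (54.3%) and fell in 4 (8.7%), with a median of 0.88 (0.79 with lower limits).

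Genes of oxidative phosphorylation, the mitochondrial chain that makes ATP, rose in 61 of 76 cases and fell in 3, with a median of 2.01. These shares were 80.3% and 3.9%, against 23.8% and 23.9% of all genes. Cyc1, the cytochrome c1 subunit, rose by 5.41 ± 0.44 (adjusted p = 5.24e-08), and the complex I subunits Ndufb7 and Ndufb10 by 5.01 and 4.60. Sdha, the catalytic subunit of complex II, fell by 1.89 ± 0.39 on the log2 scale (adjusted p = 0.000741), from 9.30 and 9.16 to 6.78 and 7.89. The mitochondrial ribosomal proteins were more mixed, with 46 rises (61.3%) and 9 falls (12.0%) among 75 and a median of 1.18 (1.13 with lower limits). Mrpl19 rose by 5.55 ± 0.31 (adjusted p = 1.01e-09), whereas Mrpl48 fell by 4.39 ± 0.32 on the log2 scale (adjusted p = 1.63e-08).

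The promoters of these groups were read for the letters GCGCA and GCGC with any 1 base between them, which form the core of the consensus known for NRF1, a factor named for its link to respiratory genes. RefSeq promoter windows on GRCm38.p6 ran from 250 bases before to 50 bases after the gene start and were searched on both strands. The letters stood in 4.60% of all 32851 windows and in 7.55% of the 15541 tested genes that matched a window. Within the lists a gene counted once if any of its windows held them. They stood in 17 of 63 matched oxidative phosphorylation genes, and 12 of those 17 rose. For mitochondrial ribosomal proteins they stood in 13 of 66 genes, 10 of which rose. They stood in 6 of 24 proteasome genes, of which 5 rose, and in 9 of 37 spliceosome genes, of which 4 rose. They stood in 5 of 44 cytosolic ribosomal protein genes and 5 of 37 ribosome assembly genes, and all of these carriers rose. The zona and oocyte factor list had them in 1 of 13 genes and the trophectoderm list in none of 32. Over the whole lists, 80.3% of oxidative phosphorylation, 61.3% of mitochondrial ribosomal, 90.0% of proteasome and 54.3% of spliceosome genes rose. Whether genes with the letters rose more often was not tested. The share of genes with the letters thus varied among groups that rose. It was 19.7% to 27.0% in the oxidative phosphorylation, mitochondrial ribosomal, proteasome and spliceosome groups. In the cytosolic ribosomal protein and ribosome assembly groups it was 11.4% and 13.5%. No trophectoderm gene had the letters, although 60.0% of that list rose. The match describes the letters only, since neither binding of the factor nor the promoter's activity was measured. 4 promoters from the groups that rose are shown to display where the match, in capitals, lies relative to the gene start: Ndufa5 (chr6:24527477-24527776, minus strand), Mrpl17 (chr7:105811038-105811337, minus strand), Psma3 (chr12:70974373-70974672, plus strand) and Snrpd2 (chr7:19149588-19149887, plus strand), each written 5′ to 3′ along the gene.
Ndufa5: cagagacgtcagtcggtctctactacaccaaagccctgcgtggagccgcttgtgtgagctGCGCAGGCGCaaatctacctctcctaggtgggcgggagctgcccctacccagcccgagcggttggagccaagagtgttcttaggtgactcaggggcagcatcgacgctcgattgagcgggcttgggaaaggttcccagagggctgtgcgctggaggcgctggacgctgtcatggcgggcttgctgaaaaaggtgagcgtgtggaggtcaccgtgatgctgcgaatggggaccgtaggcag
Mrpl17: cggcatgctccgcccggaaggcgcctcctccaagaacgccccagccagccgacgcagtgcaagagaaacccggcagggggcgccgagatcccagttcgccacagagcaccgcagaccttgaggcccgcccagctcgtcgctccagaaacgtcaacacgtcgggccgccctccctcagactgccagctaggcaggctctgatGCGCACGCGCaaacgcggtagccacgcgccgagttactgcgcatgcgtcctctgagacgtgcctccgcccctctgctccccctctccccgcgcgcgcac
Psma3: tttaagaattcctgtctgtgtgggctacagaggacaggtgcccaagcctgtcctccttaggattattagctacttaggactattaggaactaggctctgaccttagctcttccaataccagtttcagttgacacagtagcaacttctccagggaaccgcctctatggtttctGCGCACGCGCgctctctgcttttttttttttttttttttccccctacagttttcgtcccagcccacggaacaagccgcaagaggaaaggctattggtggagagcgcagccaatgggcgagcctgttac
Snrpd2: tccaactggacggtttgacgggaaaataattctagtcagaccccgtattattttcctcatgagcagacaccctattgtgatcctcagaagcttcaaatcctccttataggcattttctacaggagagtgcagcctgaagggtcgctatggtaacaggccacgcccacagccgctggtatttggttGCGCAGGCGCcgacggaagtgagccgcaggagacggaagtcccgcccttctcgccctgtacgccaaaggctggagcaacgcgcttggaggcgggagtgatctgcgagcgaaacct

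The match began 190 bases before the start of Ndufa5, 49 before that of Mrpl17, 78 before that of Psma3 and 65 before that of Snrpd2. Ndufa5, a complex I subunit, read 12.65 and 12.71 in pronuclear, 12.81 and 12.90 in 2-cell and 16.83 and 16.96 in morula embryos (4.22 ± 0.26, limma, adjusted p = 2.44e-09). Mrpl17 had dipped to 9.57 and 9.64 at the 2-cell stage before its net rise of 3.37 ± 0.31 (adjusted p = 2.2e-07). Psma3, a proteasome subunit, rose in 2 like steps, with 11.19 and 11.14, then 12.90 and 13.29, then 14.88 and 14.90 (3.72 ± 0.27, adjusted p = 1.34e-08). Snrpd2, a core protein of spliceosomal particles, had reached 16.13 and 16.14 at the 2-cell stage from 12.13 and 11.82 and read 16.72 and 16.69 in morulae (4.73 ± 0.27, adjusted p = 9.87e-10). The 4 genes shown thus differed in the step at which they rose. All were taken from carriers that rose, so they do not stand for the other carriers.

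Metabolic genes outside the mitochondrial chain were split. In glycolysis and glucose transport 8 of 29 rose and 11 fell (median -0.18), that is 27.6% and 37.9% against 23.8% and 23.9% of all genes. Ldhb, the lactate dehydrogenase subunit of oocytes, fell by at least 4.50 (limma, adjusted p = 1.97e-08), the phosphofructokinase Pfkp by at least 2.24 and the gluconeogenic enzyme Fbp1 by at least 2.60. Fbp2, the relative of Fbp1, was the largest rise of the group, and the glucose transporter Slc2a3 read 3.19 and 3.56 in pronuclear embryos and 9.43 and 9.99 in morulae (at least 3.74, adjusted p = 4.21e-08). In cholesterol synthesis and uptake 8 of 26 rose (30.8%) and 9 fell (34.6%), with a median of 0.46. Scap, a sterol-sensing escort protein, gave -5.29 ± 0.37 (adjusted p = 1.09e-08) and the isomerase Ebp 4.43 ± 0.31 (adjusted p = 1.08e-08).

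Of 31 amino acid transporters and tRNA synthetases 15 rose (48.4%, against 23.8% of all genes) and 6 fell (19.4%, against 23.9%), with a median of 0.84. Slc6a9, the glycine transporter with which early embryos control their volume, read 15.56 and 15.74 against 8.17 and 7.65 (-7.74 ± 0.30, adjusted p = 2.07e-11). Slc38a4, a neutral amino acid transporter, rose by at least 5.31 (adjusted p = 5.48e-08), with pronuclear arrays that stood apart at 3.94 and 5.54. Redox genes rose in 15 of 31 cases (48.4%) and fell in 7 (22.6%), with a median of 0.92. Gsto1, a glutathione transferase, rose by 6.66 ± 0.30 (adjusted p = 8.78e-11), and G6pdx, which makes NADPH in the pentose phosphate pathway, fell by 6.90 ± 0.31 on the log2 scale (adjusted p = 9.46e-11).

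Genes of DNA and chromatin changed in both directions. Among 19 genes of DNA methylation and imprint protection 5 rose and 8 fell (median 0.13). These shares were 26.3% and 42.1%, against 23.8% and 23.9% of all genes, so rises were about as frequent as among all genes. Zfp57, which keeps methylation at imprinted regions, read 17.67 and 17.75 against 8.41 and 7.23 (-9.89 ± 0.37, adjusted p = 1.48e-11), and Uhrf1, which guides the maintenance methyltransferase, fell by 5.66 ± 0.35 on the log2 scale (adjusted p = 2.47e-09). Tet2 read 6.504 and 7.32 against 14.77 and 14.74, a rise of 7.84 ± 0.34 (adjusted p = 6.18e-11), while its 2-cell arrays read 7.09 and 7.42. Of 41 histone modifiers and remodellers 16 rose (39.0%) and 17 fell (41.5%), with a median of 0.23. The deacetylase Hdac1 was up by 5.98 and the methyltransferase Suv39h2 down (-4.71). Subunits of RNA polymerase II and basal factors gave 14 rises (37.8%) and 12 falls (32.4%) among 37, with a median of 0.37. Polr2a, the largest polymerase subunit, was up by 3.04 and Ccnt2, a cyclin of the elongation factor P-TEFb, down (-3.10).

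Of 58 genes of DNA replication and mitosis 20 rose and 20 fell (34.5% each, against 23.8% and 23.9% of all genes), with a median of 0.10. The cyclin E genes parted: Ccne1 read 10.38 and 10.61 in pronuclear, 17.21 and 17.37 in 2-cell and 16.11 and 16.08 in morula embryos (5.60 ± 0.27, adjusted p = 2.2e-10), and Ccne2 fell by 3.92 ± 0.33 on the log2 scale (adjusted p = 7.84e-08). Pold1, the catalytic subunit of polymerase delta, rose by 5.94 ± 0.36 (adjusted p = 2.11e-09). This list held 7 genes that kept their level at all 3 stages, among them the replication clamp Pcna and the helicase subunit Mcm6.

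A net difference near 0 has a meaning only where its interval is narrow. Of the 11065 genes that were not called, 7603 had a 95% interval that reached beyond 1 log2 unit on either side, so a doubling could not be told from no change. The interval lay within 1 log2 unit for 3462 genes (16.4%), of which 1123 exceeded the receptor percentile at both stages. 3 classes were drawn from these, and all of them rest on the width of intervals from 2 arrays a stage.

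The first class left the pronuclear level at the 2-cell stage, upward, and was back in morulae, with both steps past the threshold. It held 261 genes (1.23%), whose median 2-cell rise was 1.32, and 102 of them had pronuclear means below the receptor percentile. Zscan4a (chromosome 7, 10794241 to 10799065) read 8.72 and 8.33, then 12.24 and 12.11, then 8.37 and 8.60, a net difference of -0.04 with a 95% interval from -0.89 to 0.81. Its 2-cell arrays stood above all others and the arrays of the outer stages overlapped. The fibronectin gene Fn1 read 7.14 and 7.46, then 11.14 and 11.06, then 7.41 and 6.76 (net -0.22, interval -0.89 to 0.45), and the 2-cell arrays of the co-chaperone Dnajb14 read 9.95 and 10.21 and those of the lysophosphatidic acid receptor Lpar6 9.71 and 9.69. The morula means of these last genes, 5.99 and 5.86, lay below the receptor percentile, so how closely they returned is not known. Pabpn1 of the pairs above also belonged here, with 15.42 and 15.28, then 17.02 and 17.12, then 15.66 and 15.49. Of the 261 genes, 52 (19.9%) carried provisional or receptor names and 21 (8.05%) were receptors, shares near the 17.9% and 6.64% of all genes tested.

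The second class dipped at the 2-cell stage and recovered, and held 289 genes (1.37%) with a median 2-cell change of -1.43. For 90 of them the 2-cell mean lay within the receptor range, so the depth of their dip is not known. Pronuclear means exceeded the receptor percentile for 247 of the 289. Btrc (chromosome 19, 45363734 to 45533343), a subunit of the ubiquitin ligase that marks EMI proteins for destruction, read 14.42 and 14.45, then 9.72 and 10.002, then 14.18 and 14.19. The first step was -4.58 (limma, adjusted p = 1.16e-08) and the second 4.33 (adjusted p = 1.29e-08), and the net difference was -0.25 (95% interval -0.86 to 0.37). The peptidase Prep read 15.03 and 15.21, then 11.73 and 11.44, then 15.42 and 15.27 (net 0.22, interval -0.34 to 0.78), and the NEDD8-conjugating enzyme Ube2m read 14.71 and 14.69, then 11.74 and 11.16, then 14.75 and 14.81 (net 0.08, interval -0.67 to 0.82). Sirt6, a deacetylase, sank from 9.25 and 9.32 to 5.70 and 6.01, below the receptor percentile, and read 9.13 and 8.86 in morulae. 5 tRNA synthetase genes shared this course: Sars, Wars, Gars, Qars and Nars, with 2-cell differences from -2.36 for Sars to -1.28 for Nars and net differences between -0.20 and 0.36. Proteasome subunits Psmd4 and Psma2 and the respiratory subunits Ndufc2, Sdhc and Atp5j2 were in this class too, so they did not pass the net test although both of their steps did.

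The third class kept its level, with both the 2-cell and the morula difference from the pronuclear stage bounded within 1 log2 unit and all stages above the receptor percentiles, and held 282 genes (1.33%). The calmodulin gene Calm2 read 14.57 and 14.77, then 15.01 and 15.16, then 14.65 and 14.57 (net -0.06, 95% interval -0.60 to 0.49). The insulator protein gene Ctcf read 13.47 and 13.43, then 13.77 and 13.80, then 13.41 and 13.24 (net -0.12, interval -0.74 to 0.50), and Pcna gave a net -0.13 (interval -0.76 to 0.51). Eif4e, Btg1, Wee1, Aurkb and Patl1, the relatives of oocyte genes that fell, belonged to this class. Membership of the 3 classes depended on single arrays. Without pronuclear replicate 1 they held 76, 102 and 81 genes, without pronuclear replicate 2 they held 94, 100 and 77, without morula replicate 1 they held 122, 128 and 191, and without morula replicate 2 they held 125, 139 and 163. The third class held 178 and 157 genes without 2-cell replicate 1 or 2, and with intervals within 0.7 the classes held 33, 36 and 8 genes.

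**Figure D5:**
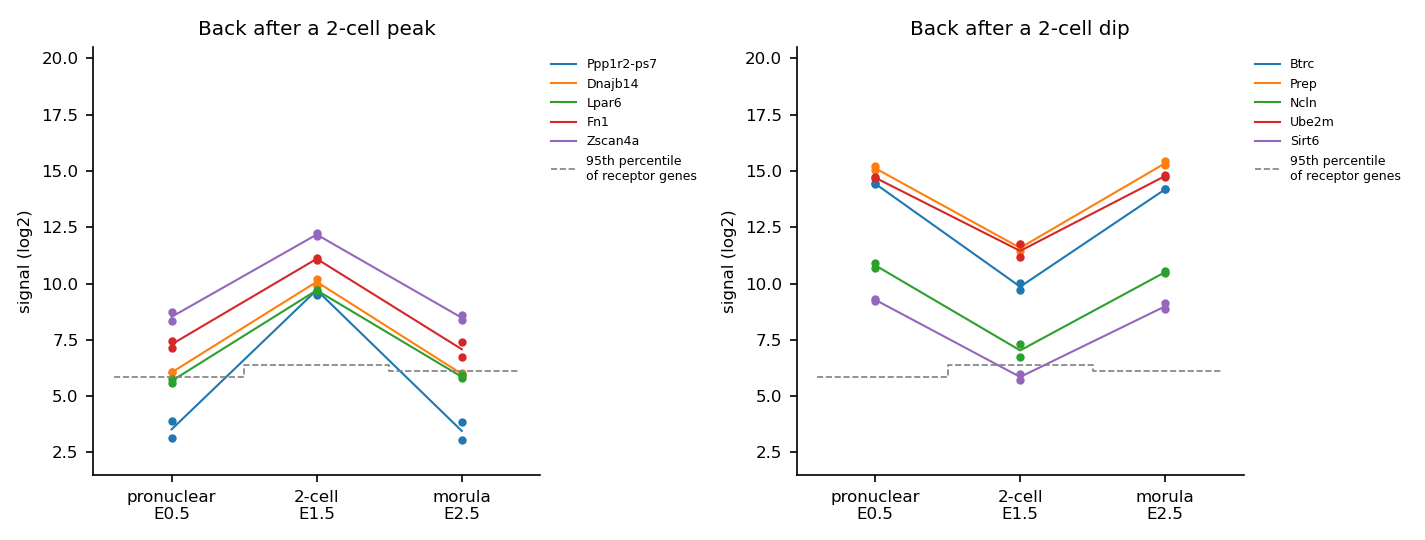
Log2 signal on each pronuclear, 2-cell and morula array of 5 genes back at the pronuclear level after a 2-cell peak (left) and 5 after a 2-cell dip (right), with lines through stage means and the receptor percentile dashed. The peaks reach 9.49 to 12.24 and the dips 5.70 to 11.74, and the outer stages of each gene lie within 1 log2 unit of each other.

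Genes often used as references in embryo PCR were among those that changed. Of 19 measured, 10 rose (52.6%, against 23.8% of all genes), 6 fell (31.6%, against 23.9%) and 3 did not pass, with a median of 1.13. Ppia read 11.46 and 11.58 against 16.28 and 16.50 (4.87 ± 0.35, limma, adjusted p = 1.19e-08), Hprt rose by 4.79, Rps18 by 3.85 and Actb by 2.77. B2m, the light chain of class I histocompatibility proteins, fell by 3.33 ± 0.42 on the log2 scale (adjusted p = 6.53e-06), with morula arrays at 6.88 and 8.44, and Tbp fell by 2.78. H2afz, Gusb, Canx, Ctbp1 and Rpl4 rose by 1.13 to 1.84, of which H2afz, Canx and Rpl4 did not pass after cyclic loess (adjusted p = 0.138, 0.0638 and 0.0891), and Tubb5, Ywhaz, Sf3a1 and Sdha fell by 0.83 to 1.89 on the log2 scale. Tubb5, Ywhaz, Sf3a1 and Ctbp1 lost their call when certain single arrays were left out, which leaves 1 array in a group. Tubb5 moved from -0.91 to -0.31 without morula replicate 1. Ywhaz changed little, with -0.795 to -0.872 when each of the 4 arrays was left out, against -0.83 with all. Without morula replicate 1 or pronuclear replicate 2, Sf3a1 gave -0.81 and -0.75, against -1.04 with all arrays. Ctbp1 gave 0.97 and 1.09 there, against 1.13. Gapdh read 12.16 and 12.55 in pronuclear and 12.74 and 12.61 in morula embryos, a difference of 0.32 with a 95% interval from -0.25 to 0.90, and was the 1 gene of the list whose interval stayed within 1 log2 unit. Pgk1 and Eef1a1, with -0.75 and 0.56, did not pass the test.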

How the data were processed

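Gene-level log2 signals of 12 Clariom S Mouse arrays were used as the authors deposited them, as SST-RMA values (a robust multi-array average after signal space transformation) per the file headers. The Transcriptome Analysis Console appears in the submitters' processing notes, and annotation release na36, which is on mm10, in the headers. Of 22206 probe sets, 21367 carried 1 gene symbol, 836 several and 3 none; those with 1 symbol were kept, and the brightest of a gene (211 dimmer ones left out), which gave 21156 genes.

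limma 3.58.1 in R 4.3.3 (lmFit, eBayes) was fitted to 5 stages on all 12 arrays, since 2 arrays a stage give a poor spread on their own, and was tested on simulated data. The morula minus pronuclear contrast was two-sided. Lower limits set the dim side, on each array, at the higher of its own signal and the receptor percentile.

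Genes named were the 8 largest rises and falls, up to 3 largest changes of each list in its main direction and 1 in the other (up to 2 for lists of other cells), 5 genes of each transient class, the pairs and the reference genes; further genes were picked after their values were seen, and some that the rule names are not reported here. The members and lists were chosen with earlier results of these data known. Alternatives covered scaling, filters, probe set rules, the arrays fitted, array weights, the replicate number as a block, leaving out each array and stricter limits. The 6 arrays of the early stages share 1 date in their headers, so no such batch divides the stages compared. For arrays no counting depth applies, and their number limits the precision.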

Additional observations from a re-analysis of the deposited data

How the results depend on the processing

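The count of genes that rose stayed within 1.5 times its value of 5030 in 25 of 26 alternatives and was 7596 after centring on the upper quartile, and the count that fell did so in all 26 (4136 to 5635). Leaving out single arrays gave 4072 to 5350 rises and 4475 to 5232 falls. The transient and kept classes were less stable. Leaving out single arrays gave 76 to 313 genes back after a 2-cell peak, 100 to 359 back after a 2-cell dip and 77 to 362 that kept their level. With the 6 early arrays only, the peak and dip classes held 158 and 184 genes, with an adjusted p of 0.01 they held 154 and 179, and with intervals within 0.7 log2 units the 3 classes held 33, 36 and 8. The 4 arrays alone hold no 2-cell embryos and give no such classes. The cause was not tested beyond the fewer arrays or stricter limits themselves. Replicate numbers did not pair the arrays (correlations of deviations 0.037, 0.046 and 0.043), and with the number as a replicate block 4860 genes rose, 4967 fell and the classes held 217, 242 and 236. Of 230 genes named 185 were called, and 168 of these kept their call in all alternatives run. The 17 others include Npm1, which reversed to -0.13 after cyclic loess, and Cdh1, Sox2, Dnmt3b, Stag3, Taf4b and Ywhaz. Where 1 stage lay below the receptor percentile, the size of a change has only a lower limit. For the 1218 called genes below it at both stages, Rec8 among them, the call itself carries little information.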

Other observations

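Imprinted genes, which are expressed from the copy of 1 parent, rose in 8 of 29 measured cases (27.6%) and fell in 9 (31.0%), near the 23.8% and 23.9% of all genes, with a median of 0.37 (0.36 with lower limits). Mest read 16.79 and 16.82 in pronuclear embryos, 13.73 and 13.85 at the 2-cell stage and 5.45 and 7.56 in morulae, a fall of 10.30 ± 0.46 on the log2 scale (limma, adjusted p = 8.93e-11), with morula arrays that stood apart. Grb10, an adaptor that restrains insulin signalling, fell by at least 3.11 (adjusted p = 2.05e-06). H13 and Mcts2 share a locus on chromosome 2, where Mcts2 lies within an intron of H13. H13, a signal peptide peptidase, read 14.28 and 14.13 against 10.41 and 10.10 (-3.95 ± 0.32, adjusted p = 5.83e-08), while Mcts2 read 7.21 on each pronuclear array, 11.72 and 11.64 at the 2-cell stage and 11.16 and 10.87 in morulae (3.802 ± 0.264, adjusted p = 9.52e-09). The host and the gene inside it thus moved in opposite directions between the same arrays.

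The marker lists of placenta and decidua and of leukocytes and blood lay mostly within the receptor range, where differences carry little information, and changed in smaller shares than the 23.8% and 23.9% of all genes. Of 21 placenta and decidua genes 4 rose and 4 fell (median 0.28), and 4 exceeded the receptor percentile in pronuclear and 2 in morula embryos. Psg17, a pregnancy-specific glycoprotein, read 9.09 and 9.25 in pronuclear embryos and 3.83 and 4.04 in morulae (at least 3.002, adjusted p = 1.13e-09), and Prl3b1, a placental lactogen, rose by at least 2.45 (adjusted p = 1.09e-06). Of 16 leukocyte and blood genes 2 rose and 1 fell, Epb42, a red cell membrane protein (at least 1.16), with a median of 0.24, and 4 exceeded the percentile at each stage.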
